A study of Macaca mulatta with 51 samples.

Results

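RC3H2 and 8 further regulators of mRNA decay were followed in subcutaneous adipose tissue (AT) and gastrocnemius skeletal muscle (SM) of rhesus macaques. The genes were RC3H1, RC3H2, ZFP36L1, ZFP36L2, PUM2, CNOT1, CNOT6, CNOT6L and TNRC6B, taken as the entries of the count table with those symbols, and all 9 were found among its 16033 genes. RC3H2 was chosen by its measured rise in SM at washout, so its differences that use SM libraries are given as a description without a test. All 9 genes passed the filter on low counts in both tissues.

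The animals were adult rhesus macaques of both sexes, the females ovariectomized, made obese by a long-term high-fat diet and injected under the skin once daily with rising doses of native human FGF21, a hormone that lowers body weight. Biopsies were taken before treatment (pre-treatment), at its end (post-treatment) and some months after it had stopped (washout), and every group shared the diet. Animals with libraries at different time points of a tissue served as their own controls. Animal 19832 had only a pre-treatment library in AT, and animal 21866 only a post-treatment library in SM. Animals given vehicle alone were not among the samples, and a change over time and a change with FGF21 therefore cannot be told apart. The libraries of AT numbered 10 pre-treatment, 9 post-treatment and 8 at washout (10 animals), and those of SM 6, 8 and 7 (8 animals). The 48 libraries held 14455195 to 23940980 counts on genes (median 18578869). Summed adipocyte markers reached 9439 to 32426 CPM (counts scaled to the library total) in AT and 36.7 to 1174 CPM in SM, and summed skeletal muscle markers 62.8 to 172 CPM in AT and 35805 to 181750 CPM in SM, as the tissue labels say. Library identifiers fall into a first, a middle and a last number series, taken here as possible batches, as the labels name none. In SM, 6 of the 7 washout libraries carry identifiers of the last series, against 2 of 6 pre-treatment and 3 of 8 post-treatment libraries.

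The 9 proteins act at successive steps of mRNA turnover. Roquin-1 and Roquin-2, the products of RC3H1 and RC3H2, bind stem-loops in the 3′ untranslated region of mRNAs, many of them for immune regulators. ZFP36L1 and ZFP36L2 are zinc finger proteins that bind AU-rich elements, and PUM2 is a Pumilio protein that binds its own short motif. TNRC6B is a GW182 protein that links Argonaute and its microRNA to the decay machinery. All of these adaptors recruit the CCR4-NOT complex, which shortens the poly(A) tail. CNOT1 is the scaffold of that complex, and CNOT6 and CNOT6L are alternative catalytic subunits. Levels below are CPM scaled by the TMM method within each tissue, given as mean ± SD over libraries. They are not corrected for gene length and are not compared between genes.

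RC3H2 (ENSG00000056586) was lower in AT at washout than at either earlier time point. In AT it was measured at 10.8 to 28.1 CPM pre-treatment (median 21.1, mean 20.6 ± 5.35, SD, n = 10). Post-treatment the range was 12.9 to 26.0 CPM (median 20.4, mean 19.9 ± 4.15, n = 9). At washout it was 3.34 to 13.2 CPM (median 4.94, mean 5.63 ± 3.17, n = 8). The washout library of animal 26292 was the highest of its group and overlapped the low end of the earlier groups, while the other 7 washout libraries lay between 3.34 and 5.95 CPM, below every earlier AT library. Raw counts behind these values were 195 to 645 pre-treatment and 64 to 264 at washout. The log2 fold change from pre-treatment to washout was -1.98 (SE 0.18, adjusted p = 1.04e-06 by the quasi-likelihood test of edgeR), which is 0.253 times the pre-treatment level. It was lower in 8 of 8 animals. From post-treatment to washout it was -1.95 (SE 0.18, adjusted p = 1.28e-06), again with a decrease in 8 of 8 animals. Between pre-treatment and post-treatment the log2 difference was -0.03 (SE 0.16, adjusted p = 0.925), higher in 3 and lower in 6 of 9 animals.

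In SM the order of the levels was the opposite. RC3H2 lay at 1.94 to 8.39 CPM pre-treatment (median 3.87, mean 4.60 ± 2.73, n = 6) and at 2.09 to 9.84 CPM post-treatment (median 4.50, mean 4.77 ± 2.35, n = 8). At washout it lay at 14.6 to 26.7 CPM (median 21.5, mean 20.6 ± 3.97, n = 7), so that every washout library was above every earlier SM library. The log2 fold change was 2.24 (SE 0.38) from pre-treatment and 2.09 (SE 0.35) from post-treatment, and RC3H2 was higher at washout in 6 of 6 and 7 of 7 animals with both samples. Of all genes, 1.51% had SM groups without overlap at washout and pre-treatment and 0.705% at washout and post-treatment. These contrasts chose the gene and have no test. Post-treatment against pre-treatment, which uses the same earlier libraries and has no test either, the log2 difference was 0.16 (SE 0.38), and the paired differences had an SD of 1.26.

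In the same SM libraries the summed level of the erythroid markers was 8.25 to 133 CPM pre-treatment (median 39.6), 16.5 to 4279 CPM post-treatment (median 55.4) and 63.5 to 1629 CPM at washout (median 839). HBB, the beta chain of haemoglobin, was at 50.8 ± 47.5 CPM pre-treatment, 574 ± 1469 CPM post-treatment and 731 ± 632 CPM at washout. None of the 4 erythroid markers tested passed the test at washout against pre-treatment by edgeR, but all 4 had an unadjusted p under 0.05, with a median log2 difference of 2.91. No marker of adipocytes, muscle, macrophages, T cells or endothelium passed in SM by edgeR. Unadjusted, the p at washout against pre-treatment was under 0.05 for 1 of 3 T cell and 1 of 5 endothelial markers and 13.4% of all genes. Against post-treatment it was so for 1 of 7 muscle, 1 of 3 T cell and 3 of 5 endothelial markers and 17.3% of all genes. The part of these cells in the SM levels of the 9 genes was not tested.

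**Figure D1:**
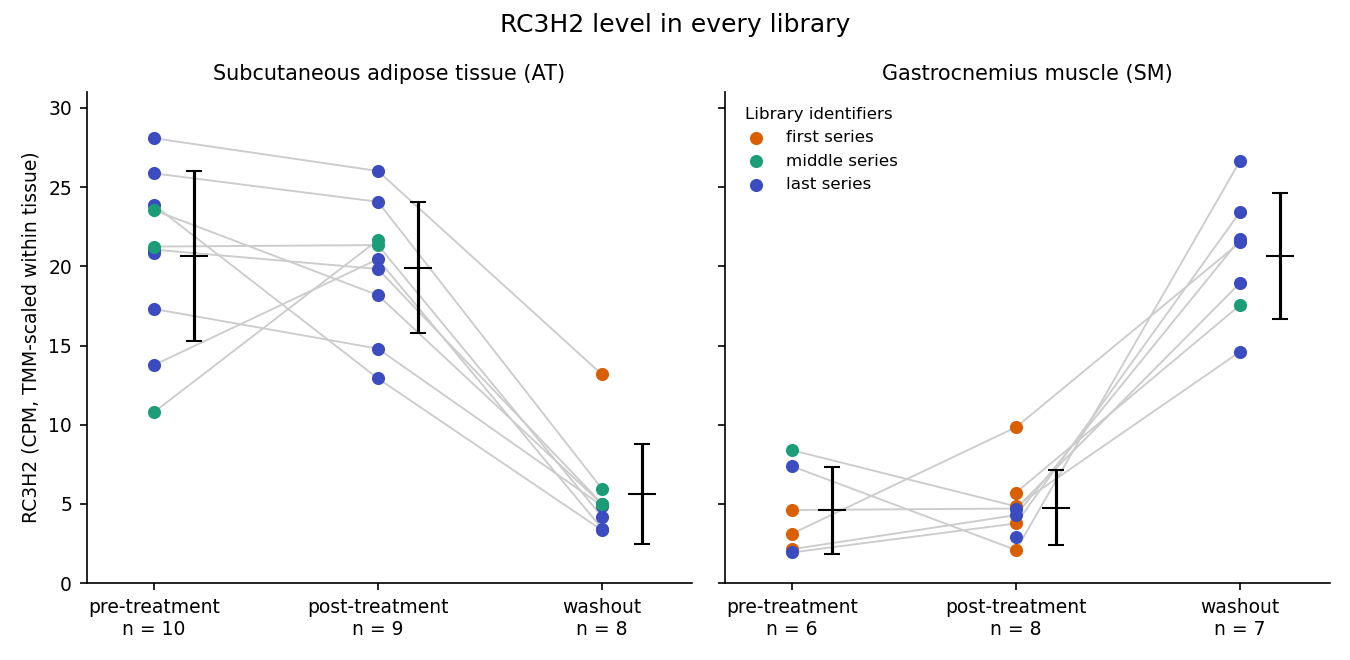
RC3H2 in CPM, scaled by TMM within each tissue, for every library at the 3 time points in AT (left) and SM (right). Points are libraries coloured by identifier series, grey lines join samples of an animal, and black bars are mean ± SD. In AT 7 of 8 washout libraries lie at 3.34 to 5.95 CPM and 1 at 13.2 CPM, and in SM all 7 lie at 14.6 to 26.7 CPM.

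The direction of RC3H2 was the same among libraries of the last identifier series alone. In SM these values use the libraries whose rise chose the gene, so their direction follows from that choice and is only described. In AT these libraries held 13.8 to 28.1 CPM pre-treatment (n = 7), 12.9 to 26.0 CPM post-treatment (n = 7) and 3.34 to 4.89 CPM at washout (n = 4). In SM they held 1.94 to 7.38 CPM pre-treatment (n = 2), 2.91 to 4.71 CPM post-treatment (n = 3) and 14.6 to 26.7 CPM at washout (n = 6). Where both samples of an animal came from the same series, RC3H2 was lower at washout than pre-treatment in 4 of 4 animals in AT (median log2 difference -2.09) and higher in 2 of 2 in SM (median 2.68). With the series in the model, the log2 fold change at washout against pre-treatment was -2.18 in AT and 2.13 in SM. The library of animal 26292 that stood apart is the only AT library of the first series. Without it the AT washout mean was 4.55 ± 0.939 CPM (n = 7) and the log2 fold change from pre-treatment was -2.16.

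Before treatment the mean of RC3H2 was higher in AT than in SM. For this comparison the 16 pre-treatment libraries were scaled together, which changes the scale of both tissues relative to the values above. On that scale RC3H2 was at 8.66 to 22.3 CPM in AT (mean 16.2 ± 4.16, n = 10) and at 2.69 to 11.9 CPM in SM (mean 6.58 ± 3.87, n = 6), and the groups overlapped. The log2 difference was 1.49 (SE 0.27), with AT higher in 6 of 6 animals that had both samples, and it stayed between 1.27 and 2.32 under the 17 alternative settings tried. It has no test, because the SM libraries compared also entered the contrast that chose the gene.

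RC3H1 (ENSG00000135870), the paralogue of RC3H2, showed the reverse order of the tissues before treatment and the reverse direction in AT at washout. On the common scale it was at 20.7 to 36.9 CPM in pre-treatment AT and at 93.8 to 232 CPM in SM, without overlap (log2 difference -2.03, SE 0.26, adjusted p = 1.04e-04). Within AT, RC3H1 rose from 26.1 to 47.3 CPM pre-treatment (mean 36.0 ± 8.06) to 48.6 to 75.0 CPM at washout (mean 61.5 ± 9.99). Post-treatment it was at 27.0 to 66.1 CPM (mean 43.9 ± 11.5). Every washout library was thus above every pre-treatment library, a pattern found for 2.27% of all genes tested in AT. The log2 fold change was 0.75 (SE 0.13, adjusted p = 3.39e-04, higher in 8 of 8 animals), and 0.51 (SE 0.13, adjusted p = 0.00537, higher in 7 of 8) from post-treatment. Among animals with both samples of the same identifier series, RC3H1 was higher than pre-treatment in 4 of 4 (median log2 difference 0.79). Against post-treatment it was higher in 2 and lower in 1 of 3 (median 0.04, beside 0.58 over all 8 pairs). Both calls held under all 19 alternatives, the series in the model among them. In SM the RC3H1 level was 65.4 to 167 CPM pre-treatment, 50.7 to 111 CPM post-treatment and 44.8 to 87.5 CPM at washout, with overlapping groups. Its log2 difference at washout against pre-treatment was -0.45 (SE 0.16, adjusted p = 0.276, lower in 6 of 6 animals), which did not pass the test. The pre-treatment SM library of animal 19832, at 167 CPM, was far above the next at 89.8 CPM.

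Of the 9 genes, 4 passed the test in AT at washout against pre-treatment, 2 higher and 2 lower, where 20.5% of all genes did. To pass, a gene needed an adjusted p under 0.05 and a change of more than 0.26, up or down, on the log2 scale. Besides RC3H1 and RC3H2 these were TNRC6B and CNOT1. Against post-treatment 6 of 9 passed, 2 higher and 4 lower, where 35.4% of all genes did. The median log2 fold change of the 9 genes was -0.07 against pre-treatment and -0.34 against post-treatment, beside -0.02 and -0.00 for all genes tested.

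TNRC6B (ENSG00000100354), the microRNA adaptor, rose in AT at washout. Its level was 24.4 to 45.7 CPM pre-treatment (mean 30.7 ± 6.14), 21.8 to 34.0 CPM post-treatment (mean 30.3 ± 3.87) and 39.7 to 60.7 CPM at washout (mean 52.6 ± 6.34). The washout libraries lay above all post-treatment libraries, as for 2.41% of all genes, and overlapped only the highest pre-treatment library, that of animal 20275. The log2 fold change was 0.75 (SE 0.10, adjusted p = 1.91e-05) from pre-treatment and 0.78 (SE 0.10, adjusted p = 1.65e-05) from post-treatment, higher in 8 of 8 animals in both. In SM its level was 47.1 to 67.5 CPM pre-treatment and 45.8 to 62.6 CPM at washout, and the log2 difference was -0.02 (SE 0.16, adjusted p = 0.966).

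CNOT1 (ENSG00000125107), the scaffold of the CCR4-NOT complex, fell in AT at washout. It was at 126 to 206 CPM pre-treatment (mean 159 ± 23.0), 143 to 180 CPM post-treatment (mean 162 ± 11.5) and 101 to 162 CPM at washout (mean 120 ± 20.6), with the library of animal 26292 again the highest. The log2 fold change was -0.42 (SE 0.09, adjusted p = 0.00124) from pre-treatment and -0.45 (SE 0.09, adjusted p = 5.59e-04) from post-treatment, lower in 8 of 8 animals in both. In SM it was at 98.7 to 136 CPM pre-treatment, 86.8 to 205 CPM post-treatment and 134 to 184 CPM at washout, with a log2 difference of 0.42 (SE 0.17, adjusted p = 0.314, higher in 6 of 6 animals) against pre-treatment that did not pass the test. Of the catalytic subunits, CNOT6L (ENSG00000138767) fell from post-treatment to washout in AT by 0.45 on the log2 scale (SE 0.10, adjusted p = 0.00256, lower in 7 of 8 animals). For CNOT6 (ENSG00000113300) that difference was -0.23 (SE 0.12, adjusted p = 0.137). It was -0.34 (adjusted p = 0.0211) without the washout library of animal 26292, which held the highest CNOT6 level of its group at 63.8 CPM. PUM2 (ENSG00000055917) fell from post-treatment to washout by 0.35 (SE 0.09, adjusted p = 0.00490, lower in 7 of 8 animals), between levels of 218 to 273 CPM and 151 to 246 CPM. Against pre-treatment its difference was -0.22 (adjusted p = 0.0912), and -0.29 (adjusted p = 0.0228) without the washout library of animal 26292. ZFP36L2 at washout against post-treatment, with -0.34 (adjusted p = 0.0675), likewise passed without that library (-0.43, adjusted p = 0.0318) or without animal 23004 (-0.42, adjusted p = 0.0403).

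**Figure D2:**
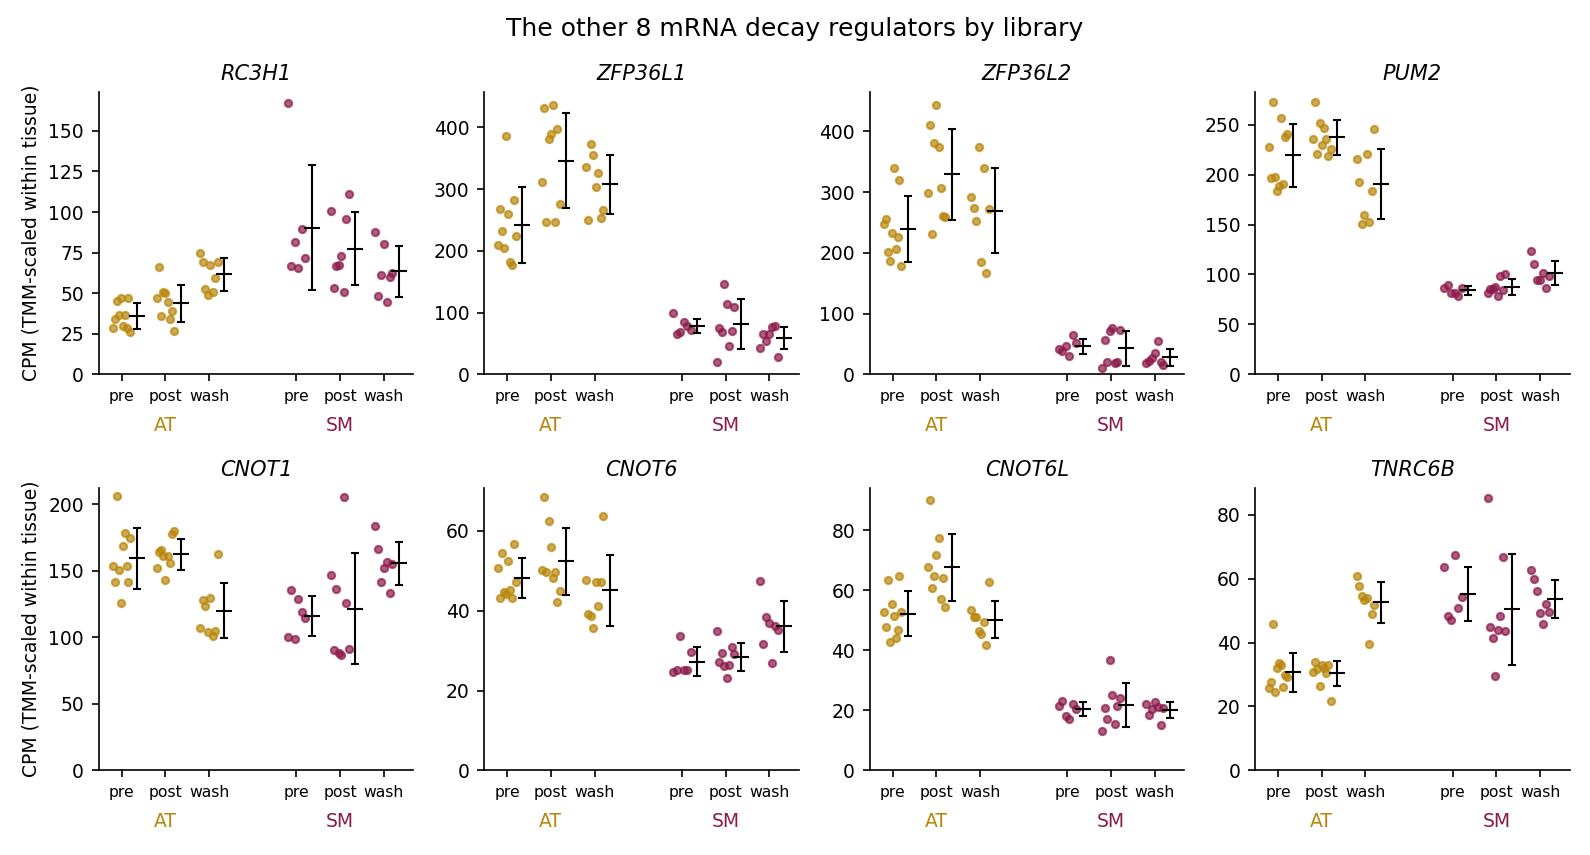
CPM of the other 8 genes, scaled by TMM within each tissue, for every library at the 3 time points in AT (gold) and SM (purple), with mean ± SD as black bars. Each panel has its own axis from 0. At washout in AT, RC3H1 (48.6 to 75.0 CPM) and TNRC6B (39.7 to 60.7 CPM) stand higher and CNOT1 (101 to 162 CPM) lower than pre-treatment.

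At the end of treatment, 3 of the 9 genes were higher in AT and 0 lower, where 15.5% of all genes passed the test, 6.98% higher and 8.49% lower. These were both AU-rich element binding proteins and a deadenylase. ZFP36L1 (ENSG00000185650) was at 177 to 386 CPM pre-treatment (mean 242 ± 61.4) and 246 to 436 CPM post-treatment (mean 346 ± 76.8), a rise of 0.50 on the log2 scale (SE 0.12, adjusted p = 0.0152). ZFP36L2 (ENSG00000152518) was at 178 to 340 CPM (mean 240 ± 53.7) and 231 to 443 CPM (mean 329 ± 75.0), a rise of 0.46 (SE 0.14, adjusted p = 0.0318). CNOT6L was at 42.7 to 64.8 CPM (mean 52.3 ± 7.48) and 54.5 to 90.3 CPM (mean 67.7 ± 11.0), a rise of 0.38 (SE 0.10, adjusted p = 0.0179). Each was higher in 8 of 9 animals, and the groups overlapped. None of the 3 passed the test when animal 22130 was left out. The adjusted p was then 0.0538 for ZFP36L1, 0.0886 for ZFP36L2 and 0.0653 for CNOT6L. ZFP36L2 also did not pass without animal 20261, 20275, 21189, 21866 or 26292. Animal 22130 had a middle-series library pre-treatment and a last-series library post-treatment, while the other 8 pairs shared a series. Each gene was higher in 7 of those 8, with median log2 differences of 0.39 (ZFP36L1), 0.41 (ZFP36L2) and 0.38 (CNOT6L). ZFP36L1 was at 177 to 205 CPM in middle-series and 209 to 386 CPM in last-series libraries pre-treatment. Post-treatment it was at 246 CPM and 276 to 436 CPM. All 3 passed with the series in the model.

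Macrophage markers moved over the same time points in AT. Summed over 8 markers, their level was 586 to 2032 CPM pre-treatment, 809 to 4167 CPM post-treatment and 355 to 1718 CPM at washout. All 8 had a positive fitted value post-treatment, 2 of them past the test (C1QA and C1QB), where 6.98% of all genes were higher. At washout against pre-treatment 5 of 8 fell, where 7.96% of all genes did. From post-treatment to washout, the contrast in which 6 of the 9 genes passed, all 8 fell (median log2 fold change -1.70). There 3 of 5 erythroid, 2 of 5 endothelial and 1 of 4 adipocyte markers (LEP, 1.87) rose. Of the T cell markers 1 of 5 (CD8A, -0.69) fell. Of all genes 17.6% rose and 17.8% fell in that contrast. On the other marker lists, the adipocyte markers LEP and PLIN1 (2 of 4) and the erythroid marker SLC4A1 (1 of 5) fell post-treatment, and the T cell marker CD8A (1 of 5) rose. Post-treatment 8.49% of all genes fell and 6.98% rose. In AT at washout against pre-treatment, 2 of 5 endothelial markers rose as well, where 12.5% of all genes did. The summed endothelial level was 740 to 1380 CPM pre-treatment and 742 to 2238 CPM at washout. No marker of T cells, in which Roquin proteins are best known, passed the test at washout against pre-treatment, and their summed level was 8.66 to 20.7 CPM pre-treatment and 9.18 to 17.2 CPM at washout. No erythroid, adipocyte or muscle marker passed it in edgeR either. At an unadjusted p under 0.05 these were 0 of 5 T cell, 0 of 5 erythroid, 1 of 4 adipocyte and 1 of 7 muscle markers, beside 34% of all genes. None of the markers tested was at 0 throughout a group. The part of cell composition in the changes of the 9 genes was not tested, and in biopsies of whole tissue fewer cells of a type and less RNA per cell cannot be told apart.

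In SM none of the 8 genes other than RC3H2 passed the test post-treatment against pre-treatment. Neither did any other gene in edgeR's test (0% called). Unadjusted, 3.24% of all genes (409) and 0 of the 8 had a p under 0.05. DESeq2 and voomWithQualityWeights also called 0. At washout none of the 8 passed, against pre-treatment (0.0634% of all genes called) or against post-treatment (0.19%). Unadjusted, 4 of the 8 had a p under 0.05 against pre-treatment and 1 against post-treatment, where 13.4% and 17.3% of all genes did. The count of all genes called at washout against pre-treatment was 8 and moved strongly with the method, to 674 by voomWithQualityWeights, 170 by DESeq2 and 1353 with the identifier series in the model. Among the 8 genes these settings called CNOT6 (log2 fold change 0.36 by voomWithQualityWeights, adjusted p = 0.0374, and 0.54 with the series, adjusted p = 0.0241), PUM2 (0.32 by DESeq2, adjusted p = 0.0475) and RC3H1 (-0.60 with the series, adjusted p = 0.0483). CNOT6 was at 24.6 to 33.6 CPM pre-treatment, 23.1 to 34.9 CPM post-treatment and 26.9 to 47.4 CPM at washout in SM, higher at washout than pre-treatment in 6 of 6 animals.

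ZFP36L1 and ZFP36L2 spread widely among the post-treatment SM libraries. ZFP36L1 was at 19.6 to 146 CPM (median 72.8) and ZFP36L2 at 10.8 to 77.0 CPM (median 38.0) in the 8 post-treatment libraries, against 66.1 to 98.6 CPM and 30.9 to 65.4 CPM pre-treatment. By identifier series, ZFP36L1 was at 19.6 to 75.7 CPM in the 5 first-series libraries and at 109 to 146 CPM in the 3 last-series libraries. ZFP36L2 was at 10.8 to 55.8 CPM and at 71.9 to 77.0 CPM in these, so the series did not overlap for either gene. The part of the series in this spread was not tested. The library of animal 19832, of the first series, was the lowest for both genes. At washout against pre-treatment their log2 differences were -0.47 (SE 0.35, adjusted p = 0.593) and -0.70 (SE 0.43, adjusted p = 0.501), each lower in 5 of 6 animals. The difference between AT and SM in the response at the end of treatment was tested as an interaction, and 0 of the 8 genes other than RC3H2 passed it in edgeR, as did 0.0487% of all genes. The largest interaction estimates were those of ZFP36L2 at 0.83 (SE 0.41, adjusted p = 0.475) and ZFP36L1 at 0.60 (SE 0.34, adjusted p = 0.551). Unadjusted, 0 of the 8 had a p under 0.05, beside 1306 of all 12322 genes.

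**Figure D3:**
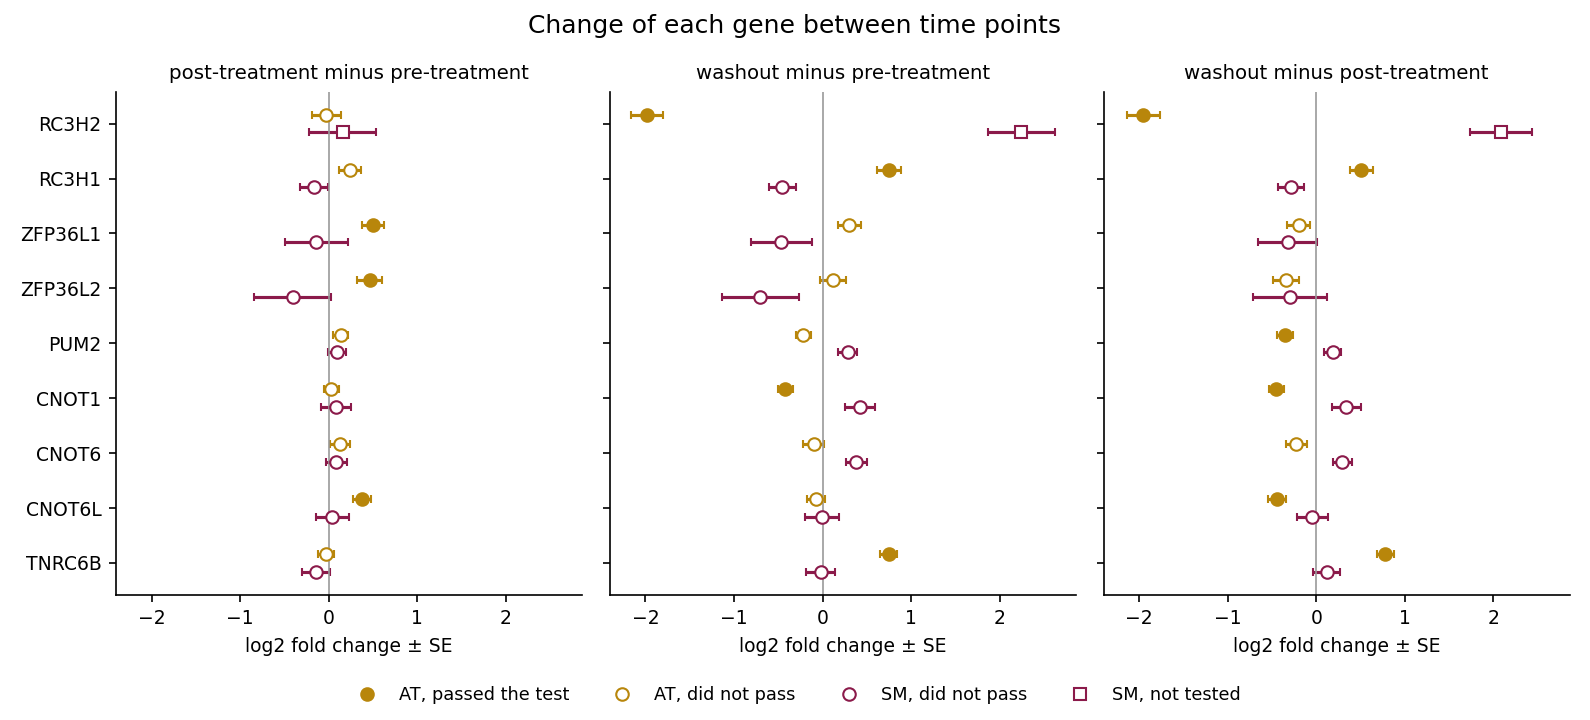
Log2 fold change of each of the 9 genes in AT (gold) and SM (purple) between the 3 pairs of time points, with bars of 1 SE. Filled circles passed the test, open circles did not, and squares are the RC3H2 values that were not tested. At washout against pre-treatment RC3H2 lies at -1.98 in AT and 2.24 in SM.

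At washout 8 of the 9 genes had fitted values of opposite sign in AT and SM, beside 60.3% of the 12322 genes tested in both. RC3H2 is among these 8, and its sign in SM was fixed by the choice of the gene. The values of TNRC6B in SM (SE 0.16) and of CNOT6 (SE 0.12) and ZFP36L2 (SE 0.14) in AT lay within 1 SE of 0. Their signs are therefore unsettled. None of the 8 genes other than RC3H2 passed edgeR's test in SM, and in AT only RC3H1, RC3H2, CNOT1 and TNRC6B did. No opposite sign thus rests on a passed test in both tissues, and the count was not tested. RC3H2 (-1.98 in AT, 2.24 in SM), CNOT1 (-0.42, 0.42), PUM2 (-0.22, 0.28) and CNOT6 (-0.10, 0.38) were lower in AT and higher in SM. RC3H1 (0.75, -0.45), ZFP36L1 (0.30, -0.47), ZFP36L2 (0.12, -0.70) and TNRC6B (0.75, -0.02) were higher in AT and lower in SM, and CNOT6L (-0.07, -0.01) was slightly below 0 in both. The AT and SM contrasts use no library in common but come from the same animals. Across all genes Pearson's r of the AT and SM washout changes was -0.37 and Spearman's rho was -0.35, a description over genes, which are not independent. RC3H2 was among 75 genes with a log2 change below -1 in AT and above 1 in SM. They made up 48.4% of the 155 genes below -1 in AT and 41.0% of the 183 above 1 in SM, while 27 genes had the opposite combination, 7 were above 1 and 1 was below -1 in both. The difference between the tissues at washout was not tested.

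**Figure D4:**
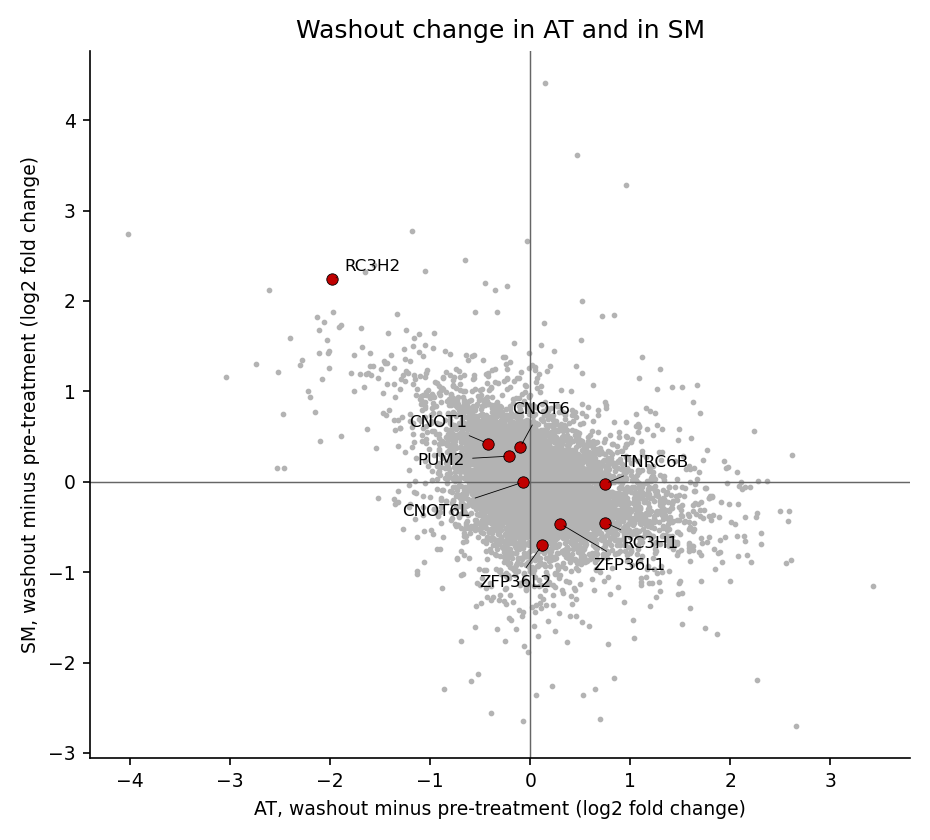
Log2 fold change at washout against pre-treatment in AT (horizontal) and SM (vertical) for 12322 genes in grey, with the 9 genes in red. RC3H2 lies in the upper left at -1.98 and 2.24, and 75 genes lie below -1 in AT and above 1 in SM.

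Genes were ranked in each tissue by how closely their levels followed RC3H2. A shared pattern over the time points in that tissue follows from the ranking and is no separate result. The SM ranking also uses the washout libraries that chose RC3H2. Over the 21 SM libraries the highest Pearson's r with RC3H2 in log2 CPM belonged to PHF20L1 (0.95), VPS13C (0.94), FILIP1 (0.93), BTBD7 (0.93) and SKIL (0.92), among 11143 genes whose mean was 1 CPM or more. Over the 27 AT libraries it belonged to HIPK1, MYO9A, MGAT5, UBXN7 and KDM5A, with r of 0.97 each, among 12138 genes. HIPK1, a nuclear kinase, had a median of 46.2 CPM pre-treatment and 8.65 CPM at washout in AT, and 6.75 and 18.7 CPM in SM. SKIL, a repressor of TGF-beta signalling, had a median of 8.15 CPM pre-treatment and 24.2 CPM at washout in SM, and 24.5 and 6.23 CPM in AT. Of the 100 genes most like RC3H2 in each tissue, 39 were shared, among 10795 genes compared in both. Of the 9 genes, CNOT1 followed RC3H2 most closely (r = 0.76 in SM, 0.89 in AT) and then PUM2 (0.73 and 0.71), while RC3H1 ran against it (-0.45 and -0.62), as did TNRC6B in AT (-0.75). Libraries of a tissue share animals and time points, so the points behind these values are not independent.

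The wider mRNA decay machinery was counted on 8 lists, which hold 89 genes besides the 9, 82 of them tested in AT. At washout against pre-treatment 18 of the 82 were higher and 5 lower, where 12.5% of all genes were higher and 7.96% lower. The median log2 fold change of the 82 was 0.06, beside -0.02 for all genes. Among binding proteins SAMD4A, the Smaug translational repressor, fell from 26.4 ± 8.23 to 9.39 ± 4.14 CPM (-1.57 on the log2 scale, SE 0.18, adjusted p = 6.43e-06), and TIA1 (0.81) and CELF1 (0.57), both binders of U-rich or GU-rich elements, rose. PAN2, the catalytic subunit of the PAN2-PAN3 deadenylase, rose from 48.7 ± 9.89 to 93.5 ± 14.0 CPM (0.93, SE 0.13, adjusted p = 5.89e-05), together with PAN3 (0.41). In the microRNA pathway 4 of 8 genes besides TNRC6B rose and 1 fell. DGCR8, which binds primary microRNAs for Drosha, rose from 28.9 ± 4.06 to 56.2 ± 8.65 CPM (0.94, SE 0.08, adjusted p = 8.73e-07), and AGO3 fell (-0.75). EDC4, a decapping enhancer, rose (0.73), the Ski complex subunit TTC37 fell (-0.56) and the exosome subunit EXOSC8 rose (0.49). In the CCR4-NOT list CNOT7, another catalytic subunit, fell (-0.36) and CNOT11 rose (0.33). N4BP1, an endonuclease related to the Regnases, rose (0.48).

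Post-treatment 4 of the 82 genes were higher and 1 lower in AT, where 6.98% and 8.49% of all genes were. DCP2, the decapping enzyme, rose from 41.2 ± 5.88 to 59.7 ± 13.8 CPM (0.51 on the log2 scale, SE 0.11, adjusted p = 0.00799), and SMG5 of nonsense-mediated decay fell from 179 ± 26.8 to 116 ± 29.3 CPM (-0.65, SE 0.13, adjusted p = 0.00456). PABPC1, AGO4 and TOB2 rose by 0.30 to 0.38 on the log2 scale. From post-treatment to washout 17 were higher and 13 lower, where 17.6% and 17.8% of all genes were. NUFIP2, a cofactor of Roquin, fell in that contrast (-0.59, SE 0.13, adjusted p = 0.00217). In SM 0 of the 81 genes tested passed in any contrast over time by edgeR. At an unadjusted p under 0.05 there were 1 post-treatment, 33 at washout against post-treatment and 25 against pre-treatment, beside 409, 2181 and 1691 of all 12617 genes.

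**Figure D5:**
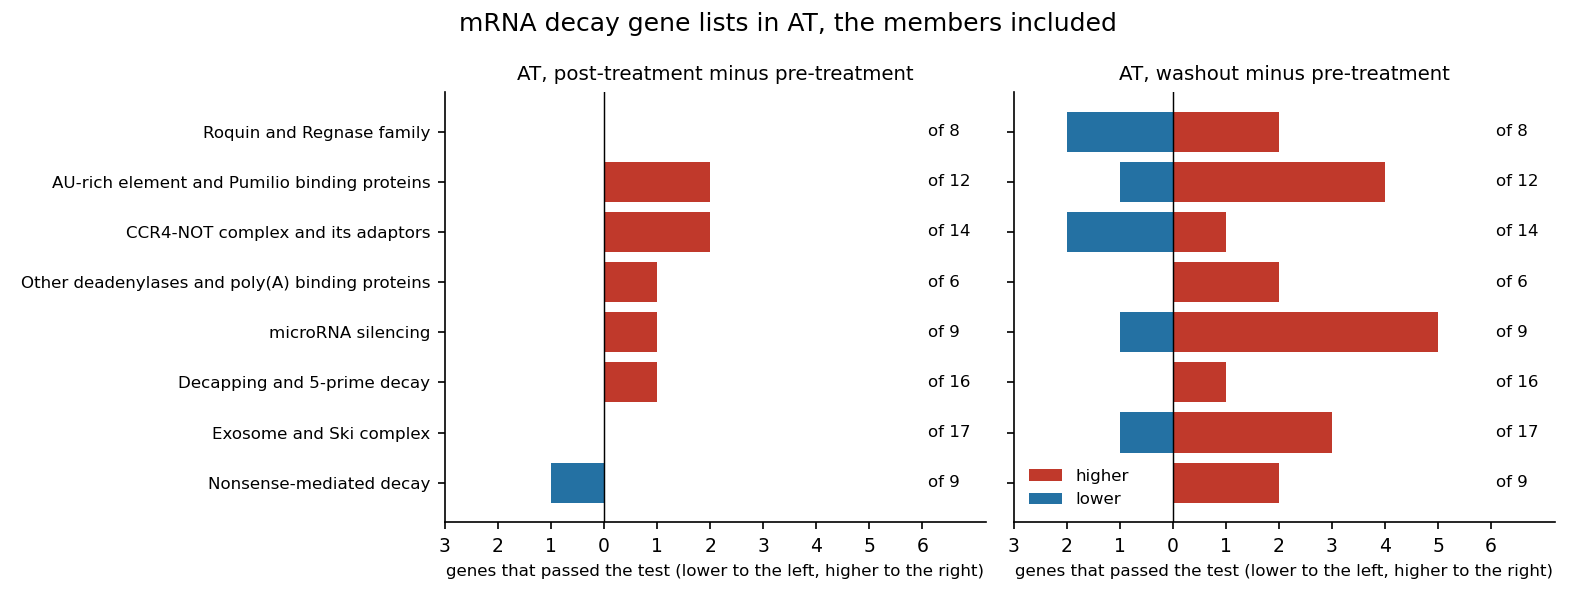
Number of genes on each mRNA decay list that passed the test in AT, lower to the left and higher to the right of 0, with the number tested beside each bar; the 9 genes are included. The microRNA silencing list, with TNRC6B, has 5 higher and 1 lower of 9 at washout against pre-treatment.

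Of 16 tested mRNAs known as targets of Roquin or ZFP36 proteins, 5 rose and 1 fell in AT at washout against pre-treatment. Of all genes 12.5% rose and 7.96% fell. The median log2 fold change of the 16 was 0.08, beside -0.02 for all genes. REL, a subunit of NF-kappaB, fell from 4.52 ± 1.60 to 0.848 ± 1.01 CPM (-2.53 on the log2 scale, SE 0.37, adjusted p = 5.83e-05). IL6, a cytokine, rose from 1.09 ± 0.582 to 2.19 ± 1.25 CPM (1.18, SE 0.35, adjusted p = 0.0205), and NFKBID rose from 2.87 ± 1.08 to 5.73 ± 2.03 CPM (0.97, SE 0.22, adjusted p = 0.00296). Post-treatment MYC alone on this list passed (0.38, SE 0.12, adjusted p = 0.0436), where 6.98% of all genes were higher and 8.49% lower. None of the 14 tested in SM passed in a contrast over time by edgeR. At an unadjusted p under 0.05 there were 1 post-treatment, 4 at washout against post-treatment and 6 against pre-treatment. Of all genes 3.24%, 17.3% and 13.4% had such a p in these contrasts.

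Leaving RC3H2 aside, the tissues differed before treatment in 7 of the other 8 genes, where 72.5% of all genes did, 38.3% higher in AT and 34.3% lower. ZFP36L2 (log2 difference 1.53, SE 0.15, adjusted p = 1.99e-05), ZFP36L1 (0.73), PUM2 (0.56) and CNOT6L (0.55) were higher in AT. With the identifier series in the model ZFP36L1 (0.51, adjusted p = 0.0682), CNOT6L (0.44, adjusted p = 0.0552) and CNOT1 (-0.32, adjusted p = 0.136) did not pass. TNRC6B (-1.67, SE 0.17, adjusted p = 2.03e-05) and RC3H1 were higher in SM. CNOT1 was higher in SM by the common TMM scale (-0.42, adjusted p = 0.0117) but higher in AT with library size as the only scaling (0.42), and CNOT6 passed only with that scaling (-0.02 against 0.82). With library size alone the median difference of all genes moved by 0.83 on the log2 scale and the share of calls higher in AT from 52.8% to 80.2%. For 6 of the 9 genes the libraries of the tissues did not overlap, as for 48.5% of all genes. Of the 82 further decay genes 13 were higher in AT and 44 in SM, with a median log2 difference of -0.48, beside 0.10 for all genes.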

How the data were processed

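RNA sequencing counts were analysed for punch biopsies of rhesus macaque AT and SM. Per the labels, stranded poly(A) libraries were sequenced with paired-end reads; the authors used STAR and the MacaM genome for alignment and deposited raw counts per gene. The tool and version used for counting are not given in the sources used here. Counts of 48 of the 51 labelled samples were used, and 3 from SM (animal 21866 pre-treatment and at washout, animal 20456 pre-treatment) were not analysed here. Of 16103 entries, 70 repeat entries of a gene with the same counts were dropped. No sequence or coordinate of these genes is printed, since none of this build was used here.

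Genes with at least 0.5 CPM in 10% of the libraries of a tissue (13367 in AT, 12617 in SM) were tested with edgeR 4.0.16 in R 4.3.3: TMM scaling, robust quasi-likelihood fits of time point and animal, 1 fit per tissue, two-sided tests, and Benjamini-Hochberg adjustment across the genes of a fit. Pre-treatment tissues were compared in a fit of tissue and animal. The interaction was fitted over 12322 genes. Log2 CPM used a prior count of 2. The fits were tested on simulated data. Libraries held 14455195 or more counts, and of the 9 genes RC3H2 in SM had the fewest (from 25 counts in a library).

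The 9 genes, the lists and the tests were chosen with earlier results of these data known. Named besides the 9 were at most the 3 largest calls of a list and contrast and the 5 genes most like RC3H2. The animal number pairs samples: after removal of time point means, libraries of the same animal correlated with a median r of 0.352 (25 pairs) in AT and 0.279 (19 pairs) in SM, against -0.0354 and -0.0464 for different animals. Alternatives were DESeq2 1.42.0, voomWithQualityWeights of limma 3.58.1, size factors of the DESeq2 type, library size alone, no filter, no replicate block, the identifier series in the model and each animal left out. Figures were drawn with matplotlib in Python.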

Additional observations from a re-analysis of the deposited data

Results flagged for a closer look

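Each of the 9 genes was examined in 6 groups of 6 to 10 libraries for a highest or lowest sample whose distance to its nearest neighbour, as a share of the range of its group, exceeded the 95% critical value of Dixon. Of 54 such groups 7 held one. By its construction that value marks about 1 in 20 groups by chance where values are independent and normal. Levels here were CPM without a log transform and the genes share libraries, so the count cannot be read against that rate. In AT at washout the library of animal 26292 was the highest for RC3H2 (13.2 CPM, next 5.95), CNOT1 (162 CPM, next 130) and CNOT6 (63.8 CPM, next 47.6). In SM the library of animal 19832 was the highest for RC3H1 pre-treatment (167 CPM, next 89.8), and that of animal 22130 for RC3H2 post-treatment (9.84 CPM, next 5.72). In AT pre-treatment the library of animal 21189 was the highest for ZFP36L1 (386 CPM, next 282) and that of animal 20275 for TNRC6B (45.7 CPM, next 33.6).

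In 4 contrasts every animal moved 1 way in AT and the other way in SM, and the difference itself was not tested. How many of all genes do so was not counted. At washout against pre-treatment, 60.3% of the 12322 genes tested in both tissues had fitted values of opposite sign. For RC3H2 the SM side of its contrasts chose the gene, so its direction there is no separate result. RC3H2 at washout against pre-treatment had log2 fold changes of -1.98 in AT (8 of 8 animals lower) and 2.24 in SM (6 of 6 higher), and against post-treatment of -1.95 (8 of 8 lower) and 2.09 (7 of 7 higher). RC3H1 at washout against pre-treatment had 0.75 in AT (8 of 8 higher) and -0.45 in SM (6 of 6 lower). CNOT1 had -0.42 in AT (8 of 8 lower) and 0.42 in SM (6 of 6 higher).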

How the results depend on the processing

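For results of single genes that had passed the test, 354 of 366 values under the alternatives passed it in the same direction, 11 did not pass and 1 reversed. For results that had not passed, 771 of 787 values did not pass either, 61 of these with the opposite sign, and 16 passed. RC3H2 in AT at washout was called under all 19 alternatives, with log2 fold changes from -2.18 to -1.87 against pre-treatment and from -2.17 to -1.82 against post-treatment; in SM its untested value ranged from 2.02 to 2.56 and from 1.78 to 2.29, and from -0.15 to 0.51 post-treatment against pre-treatment. The reversals were CNOT1 (0.42) and CNOT6 (0.82) between the tissues before treatment with library size alone. With the identifier series in the model, 4 in place of 7 of the 8 genes other than RC3H2 differed between the tissues. Of all genes 8580 in place of 9716 did. In SM, 1 of the 8 was then called at washout against post-treatment and 2 against pre-treatment. DESeq2 and voomWithQualityWeights each called 1 in the latter. Without the replicate block, that is with the animal left out of the model, no call among the 9 changed, while the genes called in SM at washout numbered 216 against post-treatment and 41 against pre-treatment. The cause of these changes was not tested.

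Over all genes, the SM washout counts moved most. Against post-treatment (24 called) library size alone gave 4, DESeq2 340 and the series 2648. Against pre-treatment (8 called) size factors of the DESeq2 type gave 22, library size alone 3, DESeq2 170, voomWithQualityWeights 674, the series 1353 and edgeR's earlier quasi-likelihood method, added after the data were seen, 3. The interaction (6 called) had 0 calls with library size alone, 24 by voomWithQualityWeights, 11 without the filter and 60 with the series. Library size alone shifted the median change by 0.11 in AT at washout against pre-treatment, where 79.7% in place of 61.1% of calls were higher, and by -0.13 in SM at washout against post-treatment; against post-treatment in AT the share was 63.0% in place of 49.7%.

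With each animal left out in turn, the genes called ranged from 805 (animal 22130) to 2214 in AT post-treatment, where 0 to 3 of the 9 were called, from 0 to 38 and from 0 to 16 in SM at washout against post-treatment and pre-treatment, and from 0 to 10 in the interaction. ZFP36L2 post-treatment in AT also lost its call without animals 20261, 20275, 21189, 21866 and 26292 (adjusted p 0.0508 to 0.0919). The washout library of animal 26292 was left out as an alternative added after the data were seen, because it stood apart for some of the 9. This called 8 in place of 6 of the 9 in AT at washout against post-treatment and 5 in place of 4 against pre-treatment. Over all genes it called 4908 in place of 4731 and 2886 in place of 2735.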
